A study of Mus musculus with 30 samples.

Results

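Hippocampal gene expression in mice fed a low dose of methylmercury (LD) was compared with that in control mice (Ctr), 5 mice in each group, over the 14284 genes that averaged 10 or more normalized read counts across these 10 libraries. All mice were male and of the inbred BALB/c strain, came at an age of 2 to 3 weeks, and were fed for 11 weeks. LD feed held 0.28 mg methylmercury (MeHg) per kg, added together with cysteine, and Ctr feed held cysteine and no added mercury. One library was made per mouse, and mice are named below by the library number in their label (Ctr 1, 7, 13, 19 and 25, LD 2, 8, 14, 20 and 26). The 10 libraries are part of a series of 30 over 21412 genes. Another 5 mice received 5 mg MeHg per kg (HD), and 15 mice carried the labels Se_Ctr, Se_LD and Se_HD, which name selenium and the same mercury groups without giving a selenium dose. The hour at which tissue was taken is not given in the sources used here.

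MeHg is the organic form of mercury that accumulates in fish. As its conjugate with cysteine it is carried across the blood-brain barrier by large neutral amino acid transporters, and it binds thiol and selenol groups, among them those of glutathione and of selenoenzymes. The hippocampus holds the pyramidal and granule neurons of the memory circuits and, like most tissues, a molecular clock. In that clock the activators Arntl (Bmal1) and Clock switch on their own repressors (Per1, Per2, Per3, Cry1, Cry2) and the nuclear receptors Nr1d1 and Nr1d2, and the latter repress Arntl in turn.

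Some libraries stood apart. Ctr 1 held pituitary hormone transcripts, with 3697 normalized counts of Gh, 647 of Prl and 1966 of Pomc, against at most 68.3, 16.2 and 14.2 in the other 9 libraries. In Ctr 13 the 10 most abundant genes took 19.1% of counts against 10.1% to 14.7% in the others, and mt-Rnr2 and Lars2 alone took 4.92% and 4.10%. LD 8 had a summed level of thalamus markers of 3135, against a median of 974 in LD mice. Where a named gene crosses the threshold without one of these mice, the value or range of values without it is given.

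Few genes separated LD from Ctr mice, and none beyond the correction for the number of genes tested. At an unadjusted p under 0.05 for the LD contrast in limma, 281 of the 14284 genes passed, which is 1.97% of those tested, and 5% of the tests would be 714 genes. Of these, 142 genes (0.994%) were higher and 139 (0.973%) were lower in LD mice. No gene passed after Benjamini-Hochberg adjustment over all genes (0.0%), and limma's lowest adjusted p was 0.99957. edgeR and DESeq2 on the recovered reads also gave 0 genes after adjustment, with 292 and 271 at an unadjusted p under 0.05. "Rose" and "fell" below therefore mean an unadjusted p under 0.05 and no more. The median absolute log2 fold change of the 281 genes was 0.46, their range was -2.01 to 1.90, and 14 of them reached a log2 fold change of 1 in either direction. For the typical gene the 95% interval extended 0.32 on the log2 scale to either side of the estimate. The count of 281 went to 427 without library 8 of LD, and 29 of the 281 genes had a mean under 10 in one of the groups and so met the minimum only through the group where they were higher.

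In 47 genes (0.329%) the 5 LD mice all lay on one side of the 5 Ctr mice, with 23 above and 24 below. If the group labels carried no information, 0.794% of genes would be expected to separate in this way, more than were seen. Of these, 27 (0.189%) also had an unadjusted p under 0.05, 17 higher and 10 lower. For any gene without overlap the exact two-sided permutation test gives p = 0.00794, the smallest value that 5 mice against 5 allow, so this p is fixed by the way the genes were picked. The plot of log2 fold change against p shows these genes at modest fold changes on both sides.

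**Figure D1:**
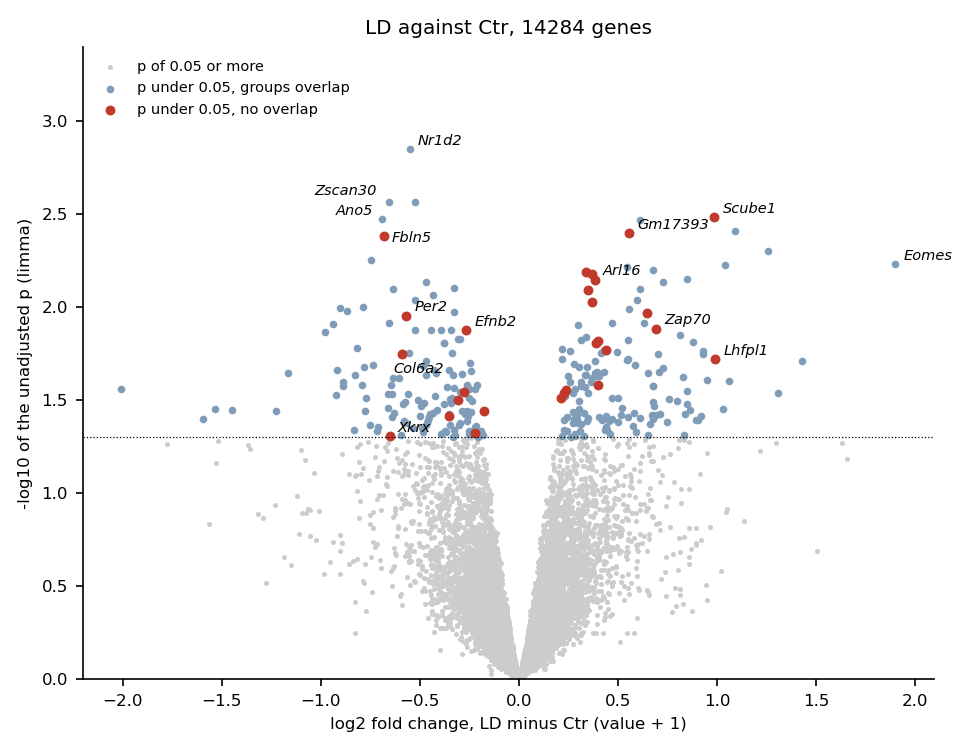
log2 fold change (LD minus Ctr, on log2 of the normalized count plus 1) against -log10 of limma's unadjusted p for 14284 genes, 1 point per gene. The dotted line is the threshold of 0.05, blue points are the genes past it whose mice overlap, and red points are the 27 past it without overlap between the 5 LD and 5 Ctr mice. Nr1d2 has the lowest p, and the red points lie between log2 fold changes of -0.68 and 0.99.

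By count of members, the circadian clock was the list with the most genes past the threshold, apart from a list assembled around low-dose candidates from these data (7 of 20). All 22 clock genes of the list used were measured above the minimum; 1 rose (Arntl), 5 fell (Nr1d2, Per2, Per3, Gm129 and Bhlhe40), and 18 of 22 had a negative log2 fold change. Over all genes 1.97% passed and 50.9% had a positive log2 fold change. The median log2 fold change of the list was -0.17, against 0.00 over all genes. The list had been drawn up with earlier results of these data known, so its count is a description. The 250 bases upstream of the start are shown for the 3 members that fell and are in RefSeq's promoter table (build GRCm38.p6), since clock factors bind such stretches at the E-box (CACGTG) and the D-box (TTATGTAA). Both strands were searched, and matches are in capitals, 5′ to 3′ on the gene's own strand.
Gm129 (RefSeq Ciart, chr3:95882229-95882478, minus strand): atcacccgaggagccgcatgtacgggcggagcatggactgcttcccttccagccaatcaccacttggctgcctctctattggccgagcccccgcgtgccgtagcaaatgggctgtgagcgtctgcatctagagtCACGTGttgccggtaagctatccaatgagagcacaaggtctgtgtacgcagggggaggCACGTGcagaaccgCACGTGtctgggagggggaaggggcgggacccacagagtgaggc
Per3 (chr4:151044666-151044915, minus strand): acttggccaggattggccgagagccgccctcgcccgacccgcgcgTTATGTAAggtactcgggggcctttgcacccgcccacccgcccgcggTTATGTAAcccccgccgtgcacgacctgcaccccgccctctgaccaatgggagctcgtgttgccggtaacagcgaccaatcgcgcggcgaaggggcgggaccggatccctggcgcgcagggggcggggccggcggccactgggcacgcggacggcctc
Nr1d2 (chr14:18239107-18239356, minus strand): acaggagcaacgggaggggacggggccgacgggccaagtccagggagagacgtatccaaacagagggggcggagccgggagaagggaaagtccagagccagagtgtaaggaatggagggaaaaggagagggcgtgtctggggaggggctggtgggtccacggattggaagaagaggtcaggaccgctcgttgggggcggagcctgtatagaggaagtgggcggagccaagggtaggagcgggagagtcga

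Gm129 held 3 E-boxes, which began 116, 58 and 44 bases before the start, and Per3 held 2 D-boxes, at 205 and 158 bases. The Nr1d2 stretch held neither motif and no cyclic AMP element (TGACGTCA), which says only that these letters are not in this window. Of 32851 promoters of the same length in the table, 6.02% held the E-box, 0.819% the D-box and 1.55% the cyclic AMP element. Of the 18 clock genes with an entry, 5 held an E-box, 1 a D-box and 1 the cyclic AMP element. By promoter, 6 entries of these genes held an E-box. Some of these genes have more than 1 promoter, so shares of genes and of promoters are not the same measure. The E-boxes of Per1, Cry1, Tef and Bhlhe41 and the element of Hlf lay in genes that did not pass.

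Nr1d2, the REV-ERB beta receptor that represses Arntl, had the lowest p of all 14284 genes (chr14:19036568-19071641 in the build of the files, NCBIM37, minus strand). Its normalized counts were 1149.5, 1055, 1094, 818 and 1145 in Ctr mice 1, 7, 13, 19 and 25, and 707, 803, 924, 578 and 606 in LD mice 2, 8, 14, 20 and 26. Only Ctr 19 reached down into the LD range, and 4 of 5 LD mice lay below every Ctr mouse. The log2 fold change was -0.55 (SE 0.15), and the exact permutation test gave p = 0.0159.

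Per2, a core repressor that pairs with the cryptochromes, fell without overlap (chr1:93312561-93355907, minus strand). Ctr mice had 313, 371, 296, 329 and 406 normalized counts, and LD mice had 276, 263, 204, 282 and 151, in the same order of libraries as above. The highest LD mouse thus lay just under the lowest Ctr mouse, and the group means were 343 ± 44.8 and 235 ± 56.1 (SD, n = 5 each). The log2 fold change was -0.57 (SE 0.20). Per3, the third period gene, had 450.4, 259.6, 413, 264 and 389 in Ctr mice and 244, 224, 325, 196 and 175 in LD mice, a log2 fold change of -0.60 (SE 0.25) with overlap through LD 14 (exact permutation p = 0.0397). Per1, the period gene that is also induced by neuronal activity, ranged from 482 to 1402 in Ctr mice and from 493 to 969 in LD mice and did not pass (log2 fold change -0.40, 95% interval -0.94 to 0.13). It did pass without Ctr 13 (-0.62), and in no other fit that left out 1 mouse.

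Gm129, which codes for the repressor of Arntl and Clock now called Ciart or Chrono, fell by 0.66 on the log2 scale (SE 0.28). Its values were 88.1, 83.1, 59.6, 31.2 and 89.0 in Ctr mice against 40.0, 39.8, 58.6, 43.8 and 28.7 in LD mice, so that Ctr 19 lay among the LD mice (exact permutation p = 0.0635). Bhlhe40 (Dec1), a repressor that competes for E-boxes, fell by 0.22 (SE 0.10) without overlap, from 500.2 to 559 in Ctr mice and from 412 to 497 in LD mice. Arntl, the activator, rose. It had 245, 311, 223, 353 and 285 in Ctr mice and 339, 381, 334, 327 and 359 in LD mice, a log2 fold change of 0.31 (SE 0.13, exact permutation p = 0.0397). LD 8 and LD 26 lay above every Ctr mouse, and the other LD mice lay within the upper part of the Ctr range.

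The other 16 clock genes did not pass. Among the output genes, the PAR-domain factors Dbp, Hlf and Tef had log2 fold changes of -0.48 (95% interval -1.06 to 0.10), -0.42 (-0.94 to 0.09) and -0.32 (-0.64 to 0.01). Bhlhe41, the partner of Bhlhe40, was at -0.28 and the kinase gene Csnk1e at -0.21. With 1 mouse left out, some of these passed. Csnk1e did so without Ctr 13 (-0.27) or LD 8 (-0.24), and Bhlhe41 without Ctr 19 (-0.36) or LD 20 (-0.37). Dbp passed without Ctr 19 (-0.64) or LD 14 (-0.70), and Tef without Ctr 19 (-0.37), LD 2 (-0.36) or LD 14 (-0.36). The members nearest to 0 were Cry2 (-0.06, interval -0.28 to 0.16) and Csnk1d (0.06, -0.15 to 0.28). Clock itself was at -0.12 (-0.40 to 0.17). Nr1d1, the close relative of Nr1d2, was at -0.13 (-0.49 to 0.23).

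**Figure D2:**
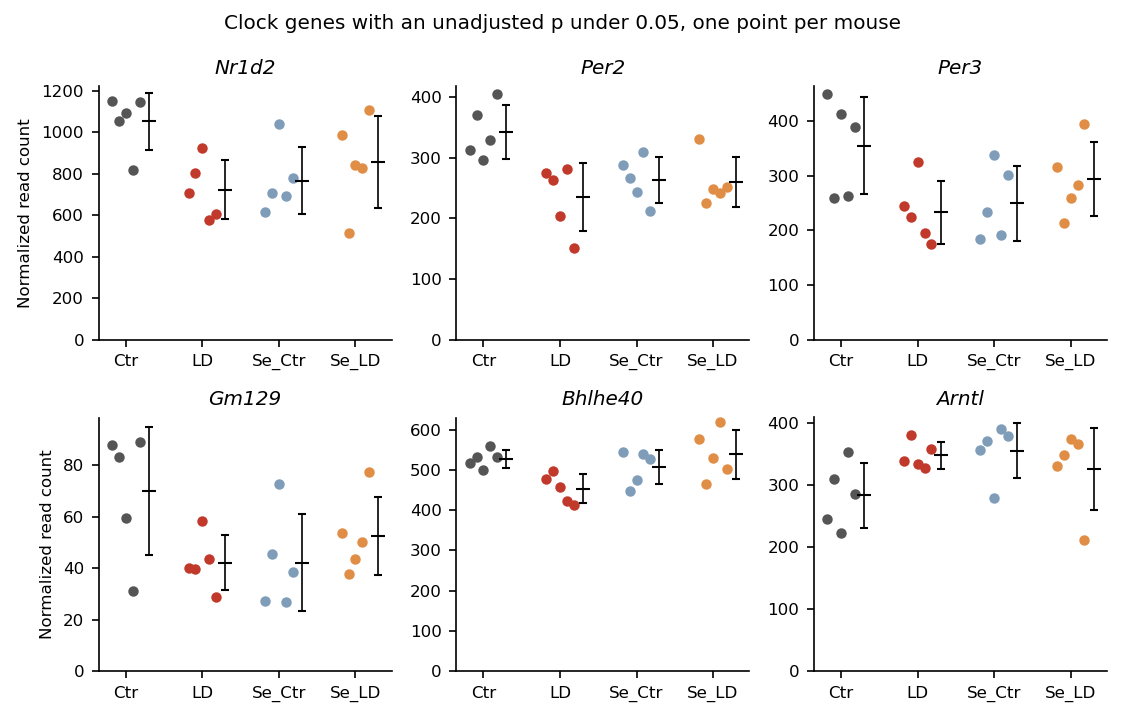
Normalized read counts of the 6 clock genes with an unadjusted p under 0.05 for LD against Ctr, 1 point per mouse, in the Ctr, LD, Se_Ctr and Se_LD groups (5 mice each). Black bars are the mean and the SD. Ctr mice are the highest group for Nr1d2 and Per2 (means of 1052 and 343), and the Se_Ctr mice (767 and 264) lie nearer to the LD mice (723 and 235).

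The number of clock genes past the threshold depended on single mice. It was 6 with all mice, 2 without Ctr 1 (the mouse with pituitary transcripts), 3 without Ctr 25 and 3 without LD 26, and between 4 and 8 without any other single mouse. Nr1d2 and Per2 passed in all 10 fits that left out 1 mouse, with log2 fold changes from -0.64 to -0.48 and from -0.65 to -0.42. Per3 no longer passed without Ctr 1, 13 or 25 or LD 20 or 26 (-0.51 to -0.56), Gm129 without Ctr 1, 7 or 25 or LD 26 (-0.54 to -0.58), Arntl without Ctr 1 or 13 or LD 8 (0.23 to 0.28), and Bhlhe40 in all but 3 fits (-0.26 to -0.19 over all 10).

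In the mice with the selenium label, whose controls are other animals, the values of the clock genes followed another pattern. There the LD contrast of the 22 clock genes had a median log2 of 0.09, 17 of 22 were positive, and 2 passed (Rora and Rorb, both higher in Se_LD mice, with log2 fold changes of 0.46 and 0.26), where 1.43% of all genes passed. Rora was highest in Se_LD 11 and 29 (829 and 945), the Se_LD mice with the most of the thalamus marker Prkcd (1082 and 843). Of 7 thalamus markers, 3 passed in the same contrast, with a median of 0.66. The part of thalamic tissue in the Rora values was not tested. The Se_Ctr mice are controls by their label, and the mercury content of their feed is not given. Their clock levels were nearer to those of LD than of Ctr mice in 17 of the 22 genes and in 5 of the 6 that had passed. This held for 53.5% of all genes and for 62.3% of the 281. Per2 was at 264 ± 38.1 in Se_Ctr and 259 ± 41.1 in Se_LD mice, Nr1d2 at 767 ± 163 and 855 ± 222, and Arntl at 356 ± 44.0 and 326 ± 66.4 (SD, n = 5 each). The difference between the LD effects of both diets, which includes the LD contrast itself (all 30 libraries in one limma fit) had an unadjusted p under 0.05 in 7 of the 22 clock genes, where 3.21% of all genes passed, and in no gene after adjustment (lowest adjusted p 0.99879). For Nr1d2 this difference was -0.69 (SE 0.27), for Gm129 -1.03 (SE 0.41) and for Per2, which did not pass, -0.54 (SE 0.30). HD mice, which are compared with the same Ctr mice, had means of 899 ± 190.2 for Nr1d2, 295 ± 108 for Per2 and 346 ± 125 for Per3. Their clock list had a median of -0.20, near that of LD mice, and 5 of 22 passed (Arntl, Cry1, Hlf and Csnk1e lower, Bhlhe41 higher), where 8.45% of all genes passed. Their mean for Arntl was 226 ± 34.6, below Ctr, where LD mice were above it.

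**Figure D3:**
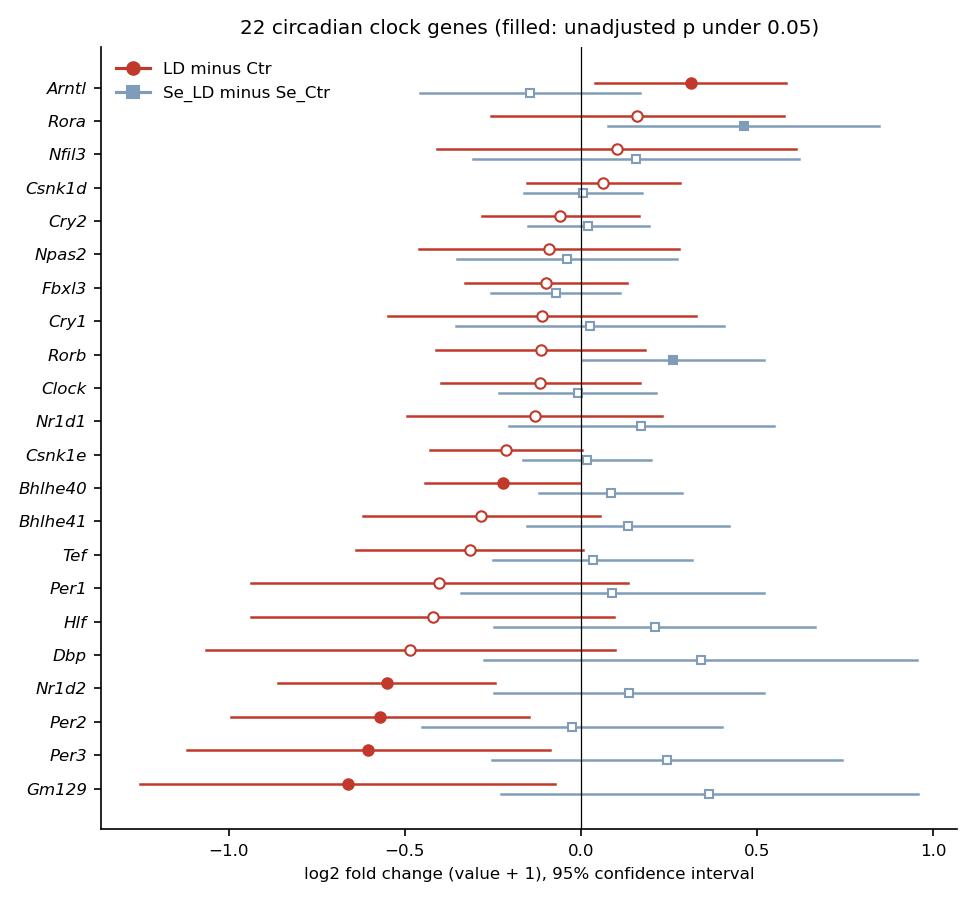
log2 fold changes (value plus 1) of the 22 clock genes with limma's 95% confidence intervals, for LD minus Ctr (red circles) and Se_LD minus Se_Ctr (blue squares), with filled symbols for an unadjusted p under 0.05. On the Ctr diet 18 of 22 estimates lie below 0, and on the selenium diet 17 of 22 lie above it.

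Genes of the extracellular matrix and the cell surface are described next. Scube1, a secreted and membrane-bound glycoprotein with CUB and EGF domains (chr15:83433013-83555451, minus strand), had 124, 299, 170.1, 242 and 260.3 normalized counts in Ctr mice and 301, 521, 359, 489 and 446 in LD mice. Every LD mouse was above every Ctr mouse, although LD 2 exceeded Ctr 7 by a small margin, and the log2 fold change was 0.99 (SE 0.29). The paralogues Scube2 and Scube3 were at 0.80 and 0.48 and did not pass. Se_Ctr and Se_LD mice both lay between, at 348 ± 80.7 and 336 ± 83.8, and the difference between the diets in the LD effect was 1.04 (SE 0.37). HD mice, set against the same Ctr mice, were at 387 ± 249, a log2 fold change of 0.70 (SE 0.29).

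Fbln5, the fibulin that guides the assembly of elastic fibres (chr12:102984775-103057265, minus strand), fell without overlap. Ctr mice had 48.3, 53.7, 57.9, 82.2 and 62.0, LD mice 38.5, 33.6, 43.9, 29.6 and 40.5, and the log2 fold change was -0.68 (SE 0.21). Of the 14 elastic fibre genes measured it alone passed, where 1.97% of all genes did, and their median was -0.18. The Se_Ctr mean of Fbln5, 37.2 ± 1.75, was at the level of the LD mice (37.2 ± 5.67) and not of the Ctr mice (60.8 ± 13.0), and Se_LD mice were at 33.9 ± 3.92. Col6a2, a chain of collagen VI, fell by 0.59 (SE 0.23), with 87.0 to 148 in Ctr and 57.9 to 86.8 in LD mice. The lowest Ctr mouse and the highest LD mouse differed by less than 1 count, and the gene no longer passed without Ctr 13 (-0.49) or LD 20 (-0.50). Efnb2, the ephrin ligand of Eph receptors in vessels and synapses, fell by 0.27 (SE 0.10), from 525 ± 28.4 to 437 ± 34.0.

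Markers of matrix-producing cells were examined beside these genes. Of 8 meningeal fibroblast markers measured, 1 fell (Ogn, log2 fold change -0.92, SE 0.37), where 0.973% of all genes did. On average 6 were lower, where 50.9% of all genes had a positive log2 fold change, and the median was -0.40. Ogn was at 175 and 199 in Ctr 13 and 19 and at 56.3 to 62.0 in the other Ctr mice, against 21.7 to 75.5 in LD mice, and it no longer passed without Ctr 13 (-0.69), Ctr 19 (-0.65) or LD 26 (-0.63). The summed level of the 8 markers was 1818 to 5244 in Ctr and 1934 to 5866 in LD mice. Of 8 markers of pericytes and smooth muscle, 4 were higher and 4 lower, with a median of -0.13, and 1 passed (1.97% of all genes did). This one, the smooth muscle actin Acta2, fell by 0.59 (SE 0.25), also with Ctr 13 and 19 highest (204 and 222), and did not pass without Ctr 13 (-0.46), Ctr 19 (-0.43), LD 8 (-0.58), LD 14 (-0.50) or LD 20 (-0.57). Fewer cells of a type and less RNA per cell cannot be told apart in tissue RNA. The part of these cells in the differences of Fbln5 and Col6a2 was not tested.

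**Figure D4:**
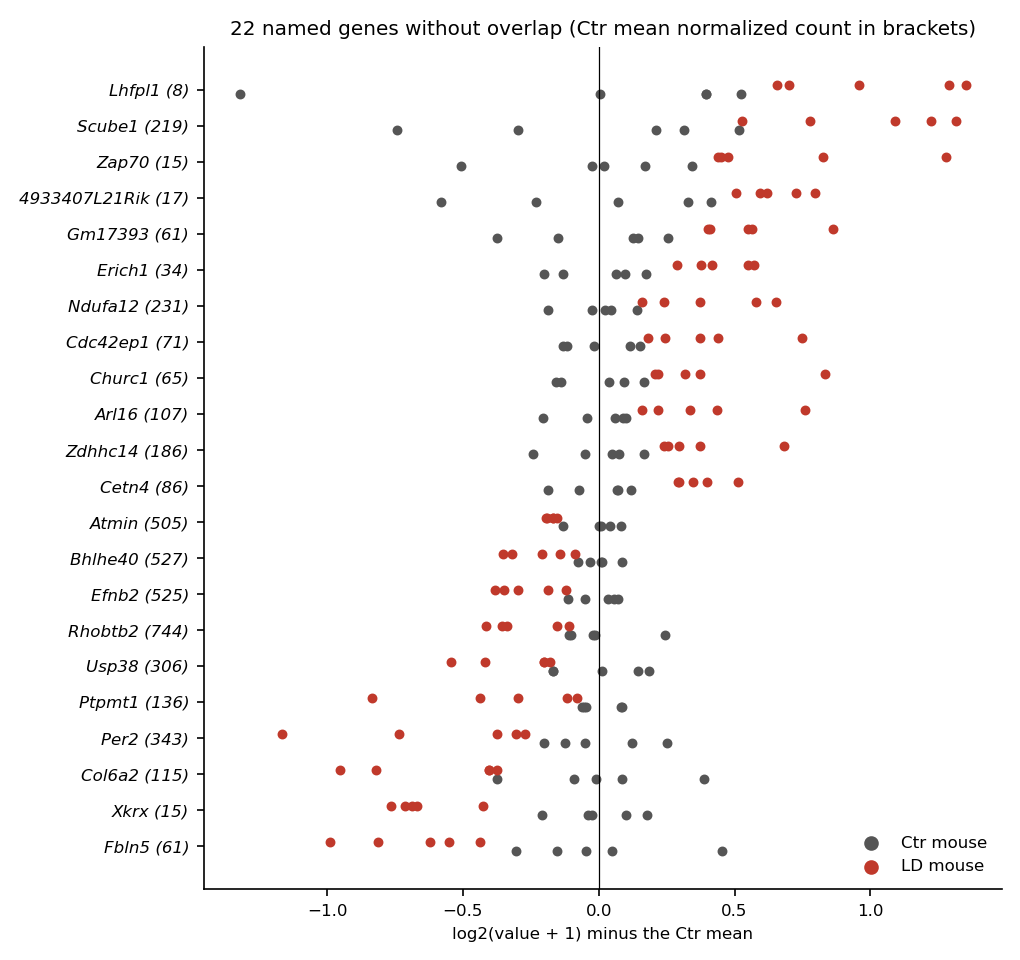
log2 of the normalized count plus 1, minus the Ctr mean, for the 12 highest and 10 lowest genes with an unadjusted p under 0.05 and no overlap between groups, 1 point per mouse (5 Ctr in grey, 5 LD in red), with the Ctr mean count in brackets. Lhfpl1 and Scube1 show the widest separation of means (0.99 each), and the nearest Ctr and LD mice are closest for Rhobtb2 and Col6a2.

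Mitochondrial genes were mixed among those without overlap. Ndufa12, an accessory subunit of respiratory complex I, rose from 231 ± 18.9 to 307 ± 45.5 (SD, n = 5 each), a log2 fold change of 0.40 (SE 0.15). Ctr mice lay at 202 to 254 and LD mice at 257 to 363, with LD 20 and 26 highest. It was the single member to pass of 82 nuclear genes of oxidative phosphorylation, a share below the 1.97% of all genes. Of the 82, 67 had a positive log2 fold change, with a median of 0.08, where 50.9% of all genes did. Averaged over the 82 genes, single LD mice lay from -0.13 to 0.40 relative to the Ctr mean on the log2 scale. Single Ctr mice lay from -0.09 to 0.10, so the groups overlapped. The 12 genes of the mitochondrial genome that were measured were all higher on average (0.17 to 0.45, median 0.23), and none passed. Averaged over them, LD 8 and LD 20 were highest, at 0.59 and 0.56 above the Ctr mean on the log2 scale, and Ctr 25 followed at 0.40. Ptpmt1, the phosphatase of cardiolipin synthesis, fell by 0.35 (SE 0.16), from 130.4 to 145 in Ctr to 76.0 to 129 in LD mice. It did not pass without Ctr 7, 19 or 25 or LD 14 or 20 (-0.23 to -0.36). Slc25a5, an ADP/ATP carrier, and Aifm1, the apoptosis-inducing factor that helps to assemble complex I, rose without overlap by 0.24 (SE 0.10) and 0.21 (SE 0.09). They lay outside the naming rule and were picked after their values were seen. Slc25a5 did not pass without Ctr 1, 13 or 25 or LD 26 (0.19 to 0.23), nor Aifm1 without Ctr 7 or 13 or LD 8 or 20 (0.18 to 0.20).

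Genes of the cytoskeleton and of small GTPases moved in both directions. Pfn1, which feeds actin monomers to growing filaments, rose by 0.31 (SE 0.13), with LD 26 far above the rest at 656 against 409 to 467 in the other LD mice and 332 to 485 in Ctr mice, and it did not pass without Ctr 13 (0.26), Ctr 25 (0.28) or LD 26 (0.20). Rhobtb2, which binds the ubiquitin ligase scaffold cullin 3, fell by 0.28 (SE 0.12) from 687 to 879 in Ctr to 555 to 687 in LD mice and did not pass without Ctr 1 (-0.21), LD 8 (-0.26), LD 14 (-0.24) or LD 26 (-0.25). Its paralogues Rhobtb1 and Rhobtb3 were at 0.05 and -0.04.

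Cdc42ep1, an effector of Cdc42, rose by 0.40 (SE 0.16) but not without Ctr 1 (0.37), Ctr 13 (0.36) or LD 20 (0.31). Arl16, an ARF-like GTPase, rose by 0.38 (SE 0.13) and Cetn4, a centrin of centrioles and cilia, by 0.37 (SE 0.13). Both passed whichever mouse was left out. Cetn4 was at 75.6 to 93.6 in Ctr and 106 to 123 in LD mice. None of the 14 tubulin and microtubule genes measured passed, and their median was 0.11.

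Markers of ependymal cells, which bear motile cilia, were examined for the same reason as those of fibroblasts. All 5 ependymal markers were higher on average (median 0.61), where 50.9% of all genes were, and 2 rose, where 0.994% of all genes did, Ccdc153 by 0.85 (SE 0.36) and Tmem212 by 0.93 (SE 0.36). Their summed level was 82.1 to 330 in Ctr mice and 167 to 367 in LD mice, so the groups overlapped. Ccdc153 did not pass without Ctr 1 (0.51), Ctr 25 (0.69), LD 2 (0.76) or LD 14 (0.76), nor Tmem212 without Ctr 1 (0.76) or LD 20 (0.70). Choroid plexus markers varied from 838 to 31695 in Ctr and from 568 to 31785 in LD mice.

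Zap70, the kinase of the T cell receptor, rose by 0.69 (SE 0.25). The values were 16.9, 19.2, 10.2, 15.1 and 14.6 in Ctr mice and 20.7, 21.2, 27.2, 20.6 and 37.6 in LD mice, so that the groups were separate by a narrow margin and LD 26 was highest. T cell genes were low or near 0. Means in Ctr and LD mice were 1.82 and 2.89 for Cd4 and 0.901 and 0.148 for Cd2. Fyn and Lck, kinases of the same pathway, were at log2 fold changes of 0.04 and 0.13.

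Lhfpl1, a tetraspan membrane protein, was higher without overlap, with a log2 fold change of 0.99 (SE 0.39), but rested on few reads and met the minimum only through the LD mice (means of 8.34 and 16.3). Its normalized counts were 2.41, 10.2, 10.2, 7.56 and 11.3 in Ctr mice and 15.6, 12.4, 19.9, 12.9 and 20.8 in LD mice, from 2 to 10 and 10 to 21 reads. It did not pass without Ctr 1 (0.66). Its relatives Lhfpl2, Lhfpl3, Lhfpl4 and Lhfpl5 lay between -0.12 and 0.22. Xkrx, of the XK family of membrane proteins, fell by 0.65 (SE 0.31) on 7 to 17 reads per mouse. It met the minimum only through the Ctr mice (means of 15.0 and 9.17). It passed in only 1 of 10 fits that left out a mouse (-0.71 to -0.61 over all 10).

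The remaining genes without overlap had different roles. Higher in LD mice were the palmitoyltransferase gene Zdhhc14 (0.37, SE 0.12), the zinc-binding factor Churc1 (0.39, SE 0.15, not passing without LD 20, 0.28), Erich1 (0.44, SE 0.17), 4933407L21Rik (0.65, SE 0.23) and the long noncoding RNA Gm17393 (0.56, SE 0.17). Gm17393 was at 45.9 to 71.5 in Ctr and 79.3 to 109 in LD mice. Lower were the deubiquitinase gene Usp38 (-0.31, SE 0.13) and Atmin (-0.17, SE 0.08), a cofactor of the ATM kinase. Usp38 did not pass without Ctr 7 or 25 or LD 20 or 26 (-0.25 to -0.28), and Atmin passed in 3 of 10 fits that left out a mouse (-0.21 to -0.15). Homer3, a scaffold of metabotropic glutamate receptors picked after its values were seen, rose by 0.34 (SE 0.11). Psmd9, a proteasome assembly factor, and 9030425E11Rik rose by 0.23 (SE 0.10) and 0.35 (SE 0.12) and were picked in the same way, and Psmd9 did not pass without Ctr 19 (0.19) or LD 26 (0.20).

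Of the 5 genes with the lowest p, Nr1d2 and Scube1 are described above, and the others fell. The anoctamin Ano5 went from 43.9 ± 9.13 to 26.8 ± 6.21 (log2 fold change -0.69, SE 0.21), the zinc finger gene Zscan30 from 55.4 ± 11.4 to 34.6 ± 6.36 (-0.65, SE 0.19), and 1700086L19Rik from 105 ± 18.4 to 72.7 ± 10.8 (-0.52, SE 0.15; SD, n = 5 throughout). In each, 4 of 5 LD mice lay below every Ctr mouse. Further list members that passed were Rxra, the common partner of many nuclear receptors, which fell by 0.33 (SE 0.11), and the ribosomal protein genes Rps29 and Rpl28, which rose by 0.30 (SE 0.11) and 0.43 (SE 0.20). Ribosomal protein genes have many processed copies, so their counts are uncertain. Rpl28 passed in 3 of 10 fits that left out a mouse (0.35 to 0.51). Over all 75 ribosomal protein genes the median was 0.02. In all, 33 genes met the naming rule and passed, and 18 of them passed whichever single mouse was left out.

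Genes that respond to MeHg or handle it were examined at this dose. None of the 18 genes of the NRF2 response and glutathione synthesis passed (median 0.02). Hmox1 was at 0.38 (95% interval -0.24 to 0.99), Gclc at -0.06 (-0.24 to 0.11), Nqo1 at 0.09 (-0.39 to 0.56) and the cystine carrier gene Slc7a11 at -0.23 (-0.63 to 0.17). None of 13 genes for removal of superoxide and peroxide, 19 selenoprotein genes, 6 genes of metallothioneins and zinc export, or 6 large neutral amino acid transporter genes passed, with medians of 0.04, 0.03, 0.08 and -0.01. Mt1 and Mt2, which bind mercury, were at 0.03 (-0.37 to 0.43) and 0.09 (-0.37 to 0.54), the selenoenzyme genes Gpx4 and Txnrd1 at 0.12 (-0.18 to 0.43) and -0.07 (-0.33 to 0.19), and Slc7a5, a carrier of the MeHg-cysteine conjugate, at -0.09 (-0.47 to 0.29). A change of 1 on the log2 scale in either direction lies outside each of these intervals.

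The lists of neuronal and stress genes likewise held no passing member among 22 glutamate receptor genes, 12 of glutamate uptake, 21 of GABA signalling, 9 of neurotrophin signalling, 17 of cholesterol synthesis, 19 of heat shock and the unfolded protein response and 12 of the interferon response. Their medians lay between -0.16 (interferon response) and 0.08 (neurotrophin signalling). The 20 immediate early genes, induced by recent neuronal activity, also had none. Their intervals were wide, as Fos was at 42.5 to 542 in Ctr and 55.4 to 361 in LD mice. The plot of the pathway lists shows the clock with more members past the threshold than any other list drawn.

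**Figure D5:**
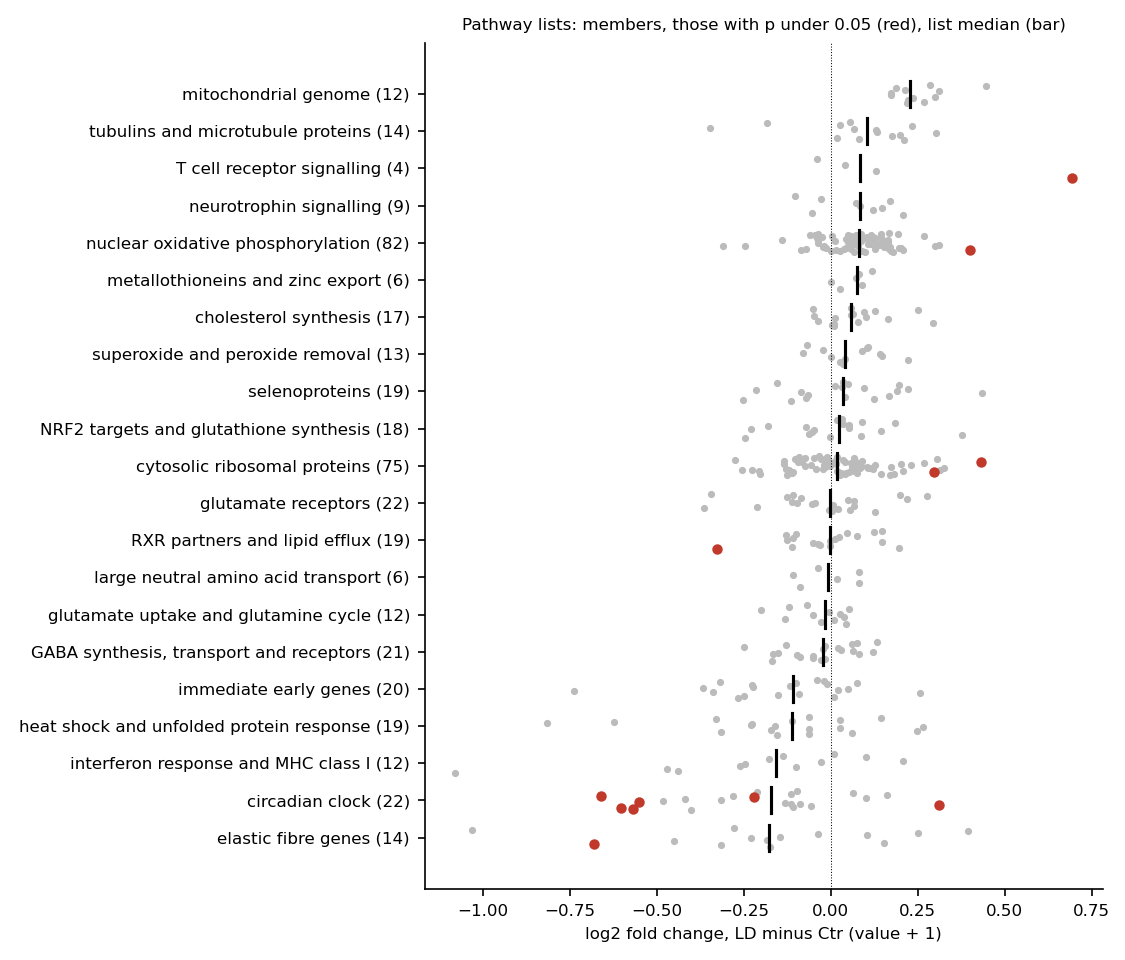
log2 fold changes (LD minus Ctr, value plus 1) of the members of 21 pathway lists, 1 point per gene, with red points for an unadjusted p under 0.05, a bar for each list's median and the number of genes measured in brackets. Medians lie between -0.18 (elastic fibre genes) and 0.23 (mitochondrial genome).

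The lists of glial markers held no passing member. None of 15 microglia, 8 activated microglia, 10 reactive astrocyte, 11 homeostatic astrocyte or 13 myelinating oligodendrocyte markers passed, with medians of 0.02, 0.01, -0.12, 0.01 and 0.05. In HD mice, compared with the same Ctr mice, the medians of the first 3 lists were 0.79, 1.54 and 1.33. All 8 neuron markers measured were higher on average, with a median of 0.10. So were all 13 myelinating oligodendrocyte markers, where 50.9% of all genes were. Averaged over either list, the LD and Ctr mice overlapped. Markers of hippocampal subfields were present in the libraries. Of 14 markers of hippocampal subfields, 1 rose (Pcp4, 0.45, SE 0.21), and of 10 interneuron markers 1 rose (Calb2, 0.59, SE 0.23). Over all genes 0.994% rose. Pcp4 was highest in LD 8 and 26 (284 and 232) and did not pass without either (0.29 and 0.36), nor without Ctr 7, 13, 19 or 25 (0.39 to 0.47). Calb2 was at 125 to 162 in Ctr and 108 to 304 in LD mice and did not pass without LD 8 (0.50) or LD 26 (0.47).

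Eomes, the factor of intermediate neuronal progenitors, had a log2 fold change of 1.90 (SE 0.61), on 1 to 8 reads in Ctr and 3 to 44 in LD mice. Its means were 4.11 and 17.7, so it met the minimum only through the LD mice, and 3 of 5 LD mice lay above every Ctr mouse. The other 7 genes of neurogenesis and proliferation did not pass. The endothelial marker Emcn rose by 0.47 (SE 0.20), while 7 of the 11 endothelial markers had a negative log2 fold change and their median was -0.06. Emcn did not pass without Ctr 7 (0.44), Ctr 13 (0.37), LD 8 (0.39) or LD 20 (0.41). All 5 erythrocyte genes were lower on average in LD mice (median -0.64), where 50.9% of all genes had a positive log2 fold change. Of the 5, 1 fell (Alas2, -0.83, SE 0.33), where 0.973% of all genes did. Alas2 did not pass without Ctr 13, Ctr 19, LD 8 or LD 26 (-0.64 to -0.74). The summed level of the 5 genes was 233 to 636 in Ctr and 172 to 414 in LD mice.

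The libraries differed from each other about as much within groups as between them. Reads on genes were 5768208 to 9121958 in Ctr and 7375942 to 11510521 in LD mice. The Euclidean distance on log2 values averaged 60.6 between Ctr mice, 57.9 between LD mice and 58.1 between a Ctr and an LD mouse. The first 3 principal components held 22.3%, 15.3% and 13.8% of the variance, and none separated the groups. Ctr 13 and Ctr 1 lay farthest out on the first, on opposite sides. Of 7 thalamus markers 6 were higher on average in LD mice (median 0.45), where 50.9% of all genes were. The median of their summed level was 974 in LD and 963 in Ctr mice, so the groups did not differ in the typical mouse. The summed level of these markers, highest in LD 8, was 1522 in LD 26 and 1787 in Ctr 1. LD 8 and LD 26 were also the mice with the highest Pcp4 and, with LD 20, the highest Calb2. The part of thalamic tissue in these values was not tested. Prkcd was the single thalamus marker to pass (0.59, SE 0.28), with 803 in LD 8 and 265 to 548 in the other LD mice. Prkcd did not pass without LD 8 (0.34), LD 26 (0.48) or Ctr 13, 19 or 25 (0.45 to 0.61). With Ctr 13 and LD 8 left out, a choice made after seeing the data, 515 genes had an unadjusted p under 0.05, 145 of them among the 281, none passed after adjustment, and 6 clock genes passed.

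The genes past the threshold were also followed on the selenium diet. Of the 281 genes, 117 (41.6%) had the same direction in Se_LD against Se_Ctr, where 44.8% of all genes did, and 2 also passed there in the same direction and 0 in the opposite one. The difference was smaller on the selenium diet in 279 of the 281, which the choice of the 281 favours. None of the 27 genes without overlap passed on the selenium diet, and for 14 of them the LD effect differed between diets at an unadjusted p under 0.05, where 3.21% of all genes passed. The LD difference that picked the 27 genes is one side of this contrast, so the count is a description. HD mice, which share the Ctr mice with the LD contrast, had log2 fold changes of 1.28 (SE 0.39) for Lhfpl1, 0.69 (SE 0.23) for 4933407L21Rik, 0.54 (SE 0.17) for Gm17393 and 0.38 (SE 0.13) for Cetn4, beside -0.10 (SE 0.21) for Fbln5 and 0.02 (SE 0.10) for Efnb2. The Se_Ctr mean was nearer to the LD than to the Ctr mean in 175 of the 281 genes (62.3%), against 53.5% of all genes. Se_LD and Se_Ctr mice differ from Ctr and LD mice in diet and in the place of their libraries in the numbering alike, and these cannot be told apart.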

How the data were processed

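RNA of the hippocampus of 30 mice was read by the authors in single-end, stranded libraries. Per the labels, reads were trimmed with Trim Galore 0.4.2, mapped with HISAT2 to NCBIM37 and counted with featureCounts. Whether counting used strand is not given in the sources used here, so genes that overlap another (4933407L21Rik, Gm17393, Cdc42ep1, Churc1, Cetn4, Xkrx, Ptpmt1, Bhlhe40, Gm129) may share its reads. The deposited values are a signal, gene counts divided by DESeq2's size factors over 30 libraries. All values (100.0%) were whole reads within 0.01 after multiplication by the factor. Symbols of 21326 of 21412 identifiers, and positions, came from the annotation of the same build.

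Genes averaging 10 or more across Ctr and LD mice were kept. The 15 libraries of Ctr, LD and HD entered limma 3.58.1 (R 4.3.3) as log2(value + 1), with trend and a coefficient for each group. p-values were adjusted with Benjamini-Hochberg. Fold changes are on the log2(value + 1) scale, which understates those of low genes. Named were, among non-overlapping genes with an unadjusted p under 0.05, the 12 highest and the 12 lowest fold changes (10 existed), the 5 lowest p, list members with an unadjusted p under 0.05, and all clock genes. Cell type markers that passed lie outside this rule. Members, lists and tests were chosen with earlier results of these data known. Mice were housed singly, 1 library per mouse. Tools were edgeR 4.0.16, DESeq2 1.42.0, pandas 2.3.3 and matplotlib 3.10.9. The fits were tested on simulated data. Proteomic data were not analysed here.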

Additional observations from a re-analysis of the deposited data

Results flagged for a closer look

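Within a group of 5 mice, 1 mouse stood apart from the other 4 in 11 of 132 groups of values examined (64 genes, the depth and the share of the 10 most abundant genes, in Ctr and LD), by a gap of more than 0.71 of the group's whole range, where chance gives about 1 in 20. LD 26 was the mouse apart in 4 of them, highest for Zdhhc14 (gap 0.731 of the range), Xkrx (0.742), Pfn1 (0.764) and Slc25a5 (0.782). LD 20 was highest for Churc1 (0.776) and Alas2 (0.75), and LD 8 for Rora (0.833). Ctr 1 was highest for Rhobtb2 (0.756) and Cry2 (0.753). Ctr 19 was lowest for Nr1d2 (0.714) and Ctr 7 for Rxra (0.781).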

How the results depend on the processing

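No gene passed after adjustment in limma, edgeR or DESeq2 under any of the 26 alternatives, nor for the difference between diets under its 10. The count of 281 genes went to 677 with no filter on low values, 603 with a sum of at least 10 over 15 libraries, 178 with a mean of at least 50, 493 with all 30 libraries in the fit, 132 when the F test over 3 groups also had to pass, and 515 without Ctr 13 and LD 8 (chosen after seeing the data). Without 1 mouse it was 244 to 427. The 27 genes without overlap became 62 with no filter, 60 with the sum of at least 10, 184 without Ctr 13 and LD 8, and 39 to 98 without 1 mouse, since fewer mice overlap less often. The 6 clock genes became 3 with the F test, 9 with Ctr and LD libraries only, 9 with size factors over the 10 libraries, and 2 to 8 without 1 mouse. These last counts were followed across the alternatives by a choice made after seeing the data. The other causes were not tested. With the set of 6 library numbers as a replicate block, 277 genes passed, 219 of them among the 281. Of the fold changes of named genes under the alternatives, 1390 kept their side of the threshold, 167 no longer passed and 30 newly passed. No gene that had passed changed direction, and 4 clock genes that had not passed (Cry2, Nr1d1, Nfil3 and Rora) changed sign under at least 1 alternative. The share of higher calls stayed between 45.9% and 55.7%. The difference between diets was not run with size factors over 10 libraries. Depth limits genes of few reads most, such as Lhfpl1, Xkrx and Eomes.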
